A study of Mus musculus with 18 samples.

Results

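Livers of 12 mice that carry an extra copy of a segment of mouse chromosome 16 were compared, as 1 pooled group, with livers of 6 wild-type mice, which together are all 18 libraries of the series. The carriers are 6 Dp16 libraries, in which the whole segment including 4 interferon receptor genes is in an extra copy, and 6 Dp16-2xIFNRs libraries, which the labels call interferon receptor dosage-normalized. Membership followed the genotype labels and no measured value. Wild-type mice were C57BL/6J. On which genetic background the carriers were kept was not given by the labels. Each of the 3 groups held 3 males and 3 females, aged 17.1 to 18.0 weeks, and no group received a treatment that the labels name. The labels number the livers as separate samples, and the p-values measure the spread between these libraries. The question is which transcripts differ between carriers and wild-type in the same way with and without the extra receptor copies.

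Dp16 mice model trisomy 21, because the duplicated segment holds the mouse counterparts of many genes of human chromosome 21. A gene in 3 copies instead of 2 is expected to give more transcript if each copy is used alike, and the receptors on the segment are studied because interferon signaling is raised in trisomy 21. The liver is made mostly of hepatocytes, which differ along the lobule: pericentral hepatocytes around the central vein carry drug-metabolizing cytochrome P450 enzymes and glutamine synthesis, and periportal hepatocytes carry the urea cycle. The liver is also a main site of cholesterol synthesis, and Kupffer cells, stellate cells and sinusoidal endothelial cells share the tissue with them.

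Column totals ranged from 38236222 to 59923315 counts, and 15208 genes passed the filter on low counts. Hepatocyte markers stood high in every library, with a summed level of 118200 to 164200 CPM (counts relative to the library total, scaled by TMM factors) in wild-type and 107500 to 179100 in carriers, and 12 of 12 markers were measured, so the labelled tissue was met by its markers. Of 10 exocrine pancreas markers, 4 were at 0 in all libraries and 1 was tested. Dp16 libraries 4 and 5 stood apart, with the lowest (0.803) and the highest (1.34) scaling factor. The balance between long and short transcripts also differed between libraries: the median deviation of long genes less that of short genes ran from -0.67 to 0.58 log2 units in wild-type, from -1.08 (library 4) to 1.09 (library 5) in Dp16 and from -0.61 to -0.20 in Dp16-2xIFNRs.

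Across the genome few genes were called between carriers and wild-type, and the genes of the segment shifted together. The edgeR quasi-likelihood test, with Benjamini-Hochberg adjustment over all genes tested, called 31 of 15208 genes (0.204%) at an adjusted p under 0.05, of which 17 were higher (0.112%) and 14 lower (0.0921%). At an unadjusted p under 0.05, 459 genes were higher (3.02%) and 481 lower (3.16%), and the median log2 fold change of all genes was -0.02. Of the 31, 5 lie on the segment and 26 elsewhere, 12 of them higher and 14 lower. Every wild-type library was below every carrier library in 8 genes (0.0526%), and above every carrier library in 4 (0.0263%), and 8 of these 12 genes were among the 31 called. The count of calls depended on the method, with 137 by DESeq2 and 29 by limma-voom. A gene that was not called is not shown to be unchanged.

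The number of calls moved with single libraries, and all 31 genes kept their direction without each library in turn. It was 10, 4, 15, 17, 8 and 6 without wild-type libraries 1 to 6. It was 20, 13 and 14 without Dp16-2xIFNRs libraries 1, 3 and 4, and 19 and 15 without Dp16 libraries 3 and 6. It was 46 without Dp16 library 4, 47 without library 5 and 54 without both, of which 30 were among the 31. Esm1, C4a, Fcna and the gene a stayed called in 18 of 18 omissions, while Lyve1, Adamtsl2, Igfbp3, Prkcz, Cyp1a2 and Sema3g stayed called in 4 (highest adjusted p 0.153, of Lyve1). The wild-type group is the smaller arm, with 6 libraries. The choice of the 31 genes in these same libraries favours a kept direction.

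The direct comparison of Dp16-2xIFNRs with Dp16 called 0 genes with edgeR (0.0%), while 1418 passed an unadjusted p under 0.05 (9.32%), DESeq2 called 7 and limma-voom 0. For each of the 31 genes called in pooled carriers, both carrier groups lay on the same side of wild-type, and the 95% interval of the difference between the groups was inside the size of the pooled change. The choice of genes by their pooled change favours both of these counts. Of the 31, Galnt15, Tmem19 and Tmem50b differed between the carrier groups at an unadjusted p under 0.05. The interaction of carrier status with sex likewise called 0 genes with edgeR (0.0%), 614 passed an unadjusted p under 0.05 (4.04%), DESeq2 called 16 and limma-voom 1.

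Genes of the segment (chromosome 16, positions 75540514 to 97962622 of GRCm38, the 4 receptors left out) stood higher in carriers as a body. Of 380 annotated genes, 93 passed the filter on low counts, 87 of these were above 0 on the log2 scale, and their median log2 fold change was 0.53 (interquartile range 0.34 to 0.77) beside -0.02 for all genes. At an unadjusted p under 0.05, 42 of the 93 were higher (45.16%) and 1 was lower, and 5 were called higher. Among the 65 whose mean log2 CPM was 1 or more the median was 0.49, with 0.58 in Dp16 and 0.47 in Dp16-2xIFNRs. The rest are too thinly counted for single values to be read.

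The extra copy could be seen in each library. Taken over these 65 genes, the median log2 ratio to the wild-type mean was -0.11 at the lowest, 0.02 at the median and 0.12 at the highest of the wild-type libraries. In Dp16 libraries it was 0.48, 0.60 and 0.67, and in Dp16-2xIFNRs libraries 0.38, 0.52 and 0.57. All 12 carrier libraries were above all 6 wild-type libraries, as the plot of segment medians by library shows. Chromosome regions that hold counterparts of human chromosome 21 genes but are outside the segment gave the measured background for this shift. Their median was -0.10 over 35 tested genes of chromosome 10 and 0.18 over 19 of chromosome 17, and 13 tested genes just proximal to the segment had a median of 0.12. Just distal to the segment 2 genes were tested, both above 0, with a median of 0.78 and neither at an unadjusted p under 0.05.

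**Figure D1:**
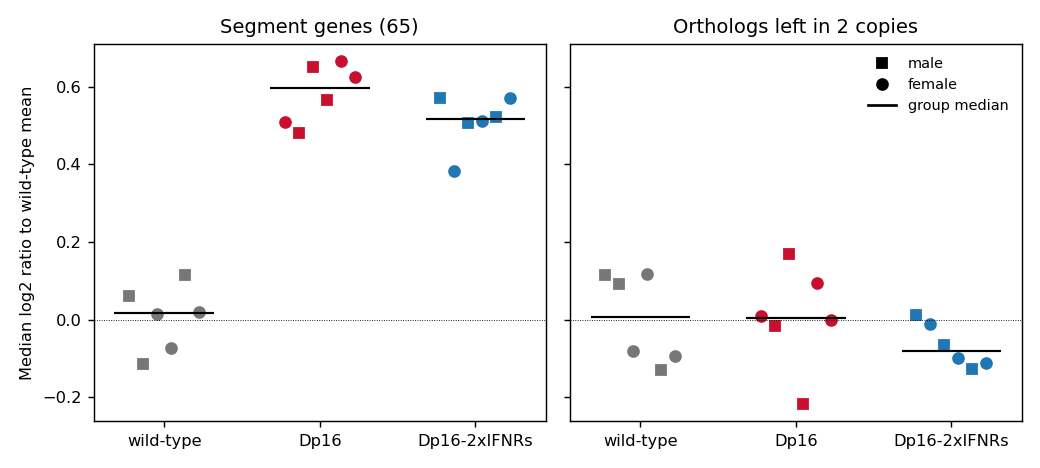
Median log2 ratio to the wild-type mean (vertical axis), 1 point per library (squares males, circles females, bars group medians), over the 65 better expressed segment genes (left) and over counterparts of human chromosome 21 genes left in 2 copies (right). For segment genes, carrier libraries lie between 0.38 and 0.67 and wild-type libraries between -0.11 and 0.12, while on the right carriers (-0.22 to 0.17) overlap wild-type (-0.13 to 0.12).

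A rise in exact proportion to 3 copies over 2 would be a log2 fold change of 0.585. The 95% interval of the pooled change held this value in 61 of the 65 genes, was above it in 0 and below it in 4, which were Jam2, Ttc3, Erg and Bace2. The interval was above 0 in 35 genes and held 0 in 30, and in 26 genes it held both 0 and 0.585, so that for those genes neither an unchanged nor a proportional level could be told apart with 6 wild-type and 12 carrier libraries. In 16 of the 65 genes, 12 of 12 carriers were above the wild-type mean. The 31 genes proximal to the receptor cluster had a median of 0.46 and the 34 distal to it 0.50, and in Dp16-2xIFNRs alone the same medians were 0.33 and 0.48.

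**Figure D2:**
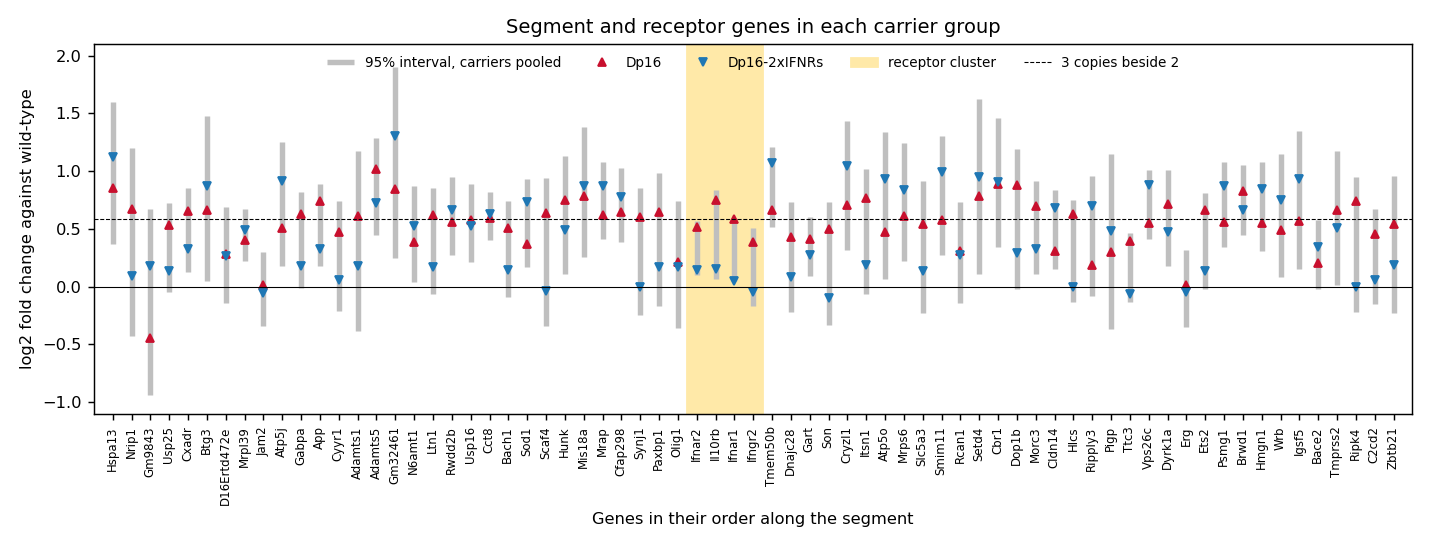
Log2 fold change against wild-type (vertical axis) in Dp16 (upward triangles) and Dp16-2xIFNRs (downward triangles) for the 65 segment genes whose mean log2 CPM was 1 or more and the 4 receptors (shaded), in their order along chromosome 16, with the 95% interval of pooled carriers as grey bars. The dashed line is 0.585, the value of 3 copies beside 2; Jam2 and Erg lie near 0 in both carrier groups.

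Cct8, a subunit of the chaperonin that folds actin and tubulin (ENSMUSG00000025613.13, chromosome 16, positions 87483326 to 87495873), had the lowest p of the segment. It measured 83.2, 100.4 and 116 CPM at the lowest, median and highest of the wild-type libraries and 122, 155 and 173 CPM in carriers. The groups did not overlap. Cct8 rose 1.53-fold (log2 0.61, SE 0.102, adjusted p = 0.0189, edgeR), with 0.59 in Dp16 and 0.63 in Dp16-2xIFNRs and an interval of -0.20 to 0.28 for the difference between the carrier groups. The chaperonin is built from 8 different subunits, and the other 7 are encoded outside the segment. None of those 7 passed an unadjusted p of 0.05, and their log2 fold changes ran from -0.01 (Cct7) to 0.19 (Cct3).

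The other called segment genes were Tmem50b, Brwd1, Vps26c and the predicted gene Gm5678. Tmem50b, which encodes a small membrane protein, measured 3.37 to 6.51 CPM in wild-type (median 4.02) and 5.71 to 11.8 CPM in carriers (median 7.67), with the lowest carriers inside the wild-type range. It rose 1.82-fold (log2 0.87, SE 0.165, adjusted p = 0.0334), by 0.67 in Dp16 and 1.07 in Dp16-2xIFNRs, and the difference of 0.40 between the carrier groups had an unadjusted p of 0.0406. Brwd1, a bromodomain protein that binds acetylated histones, measured 6.66 to 13.4 CPM (median 8.90) in wild-type and 11.3 to 20.02 CPM (median 15.8) in carriers. It rose 1.68-fold (log2 0.75, SE 0.144, adjusted p = 0.0358), in 12 of 12 carriers, and was not called with an offset for gene length (adjusted p = 0.146). Vps26c, which takes part in recycling of membrane proteins from endosomes, measured 13.2 to 19.3 CPM (median 14.7) in wild-type and 18.5 to 34.9 CPM (median 26.2) in carriers, and rose 1.64-fold (log2 0.71, SE 0.144, adjusted p = 0.0445). Gm5678 had 2 counts in all 6 wild-type libraries together and 103 and 179 counts in the Dp16 and Dp16-2xIFNRs groups (adjusted p = 0.0279). Over 18 omissions of a single library, the call of Cct8 was kept in 16, of Gm5678 in 9, of Tmem50b in 8, of Brwd1 in 7 and of Vps26c in 3, and without wild-type 2 the adjusted p was 0.0745 for Cct8 and 0.154 for Vps26c.

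The largest changes among the 65 genes were those of the predicted gene Gm32461 (log2 1.07, SE 0.395), Hspa13, a relative of heat shock protein 70 (0.99, SE 0.293), Cbr1, a carbonyl reductase (0.90, SE 0.267), Cryzl1, a quinone oxidoreductase relative (0.87, SE 0.265), and Adamts5, a protease of matrix proteoglycans (0.87, SE 0.199, adjusted p = 0.0863). None of these passed the adjusted test. At the low end, Jam2, a junction protein of endothelial cells, measured 10.6, 11.2 and 14.0 CPM at the lowest, median and highest wild-type library and 7.12, 11.2 and 16.9 CPM in carriers. Its log2 fold change was -0.02 (SE 0.154). Erg, an endothelial transcription factor, measured 5.05, 6.41 and 8.17 CPM in wild-type and 3.97, 6.57 and 8.30 CPM in carriers, with a log2 fold change of -0.02 (SE 0.161). For both genes the carrier range enclosed that of wild-type, and their intervals lay below the value for 3 copies over 2. Ttc3, a ubiquitin ligase, stood at 0.39 in Dp16 and -0.06 in Dp16-2xIFNRs, a difference with an unadjusted p of 0.0113. Gm9843, Olig1 and Son stood at -0.13, 0.19 and 0.20.

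The 4 receptors mark where the carrier groups are meant to differ, and pooling them averages that difference. Ifnar2 stood at 0.52 in Dp16 and 0.15 in Dp16-2xIFNRs, Ifnar1 at 0.58 and 0.05, Il10rb at 0.75 and 0.16, and Ifngr2 at 0.39 and -0.05. The unadjusted p of the difference between the carrier groups ran from 0.00181 to 0.0295 over the 4 genes. None was called in pooled carriers.

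Gene length moved with the values of segment genes in a way that differed between the carrier groups. Over the 65 genes, split by length into 3 groups of 21 or 22, the shortest (402 to 2347 bases of exon) had medians of 0.56 in Dp16 and 0.85 in Dp16-2xIFNRs. The middle group had 0.61 and 0.28, and the longest, from 5833 bases, 0.57 and 0.18. The Spearman correlation of length with the difference between the carrier groups was -0.76 over these 65 genes and -0.68 over 10410 genes of the same expression level, which share the same 18 libraries. The source of this balance of long and short genes was not tested. With an offset for gene length, tried only once these values had been seen, the segment median was 0.52, the interquartile range of Dp16-2xIFNRs went from 0.17 to 0.84 to 0.31 to 0.73, and 14 segment genes were called in place of 5, with Brwd1 no longer among them. Over all genes, 29 of the 31 calls were kept with this offset, and Brwd1 and Prkcz were not. The genes that differed between carrier groups at an unadjusted p under 0.05 went from 1418 to 714.

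**Figure D3:**
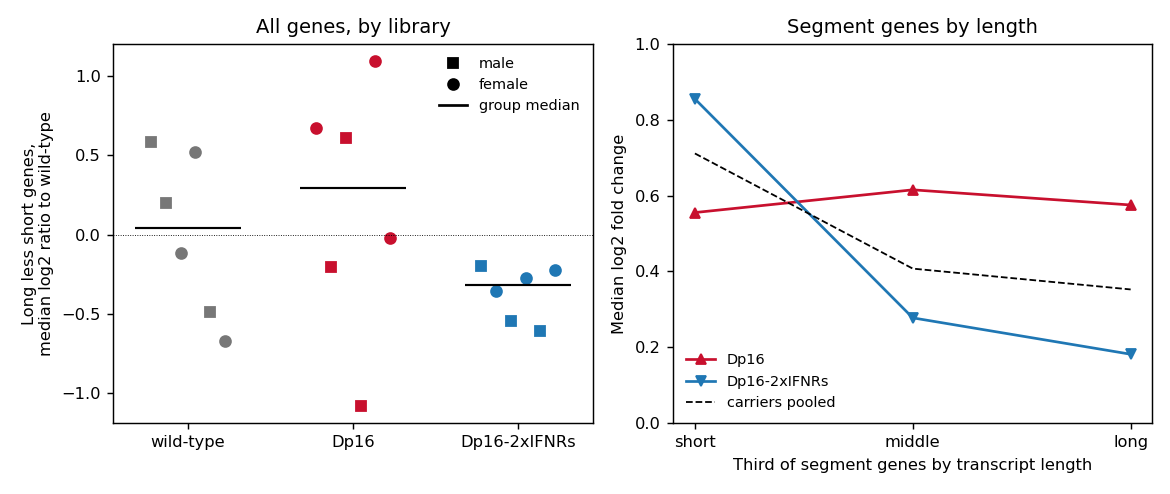
Left, median log2 ratio to wild-type of long genes less that of short genes (vertical axis) over all genes in each library, with group medians as bars. Right, median log2 fold change (vertical axis) of segment genes split into 3 groups by length, where Dp16 stays between 0.56 and 0.61 and Dp16-2xIFNRs goes from 0.85 in short to 0.18 in long genes.

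The called genes outside the segment are given by what their products are known to do. The genes that rose encode endothelial products (Esm1, Lyve1), matrix and growth factor binding proteins (Adamtsl2, Igfbp3), immunoglobulin G chains (Ighg2b, Ighg2c) and the enzymes Acmsd, Cyp17a1 and Galnt15. Those that fell encode cytochrome P450 enzymes (Cyp2c50, Cyp2d9, Cyp1a2), a transporter (Slc22a7), a sterol synthesis enzyme (Nsdhl), proteins of innate immunity (Fcna, Ccl24), and Rarres1, Tmem19, Prkcz, Cenpm and Lrtm1. C4a, a relative of complement C4b, also fell. Sex was balanced in every group, and carriers and wild-type did not overlap within males or within females for 22 of the 31 called genes, 11 higher and 11 lower. Over all genes, 20 were separated upward (0.132%) and 22 downward (0.145%) in this way. The choice of the 31 by a test with sex as a term favours their count.

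**Figure D4:**
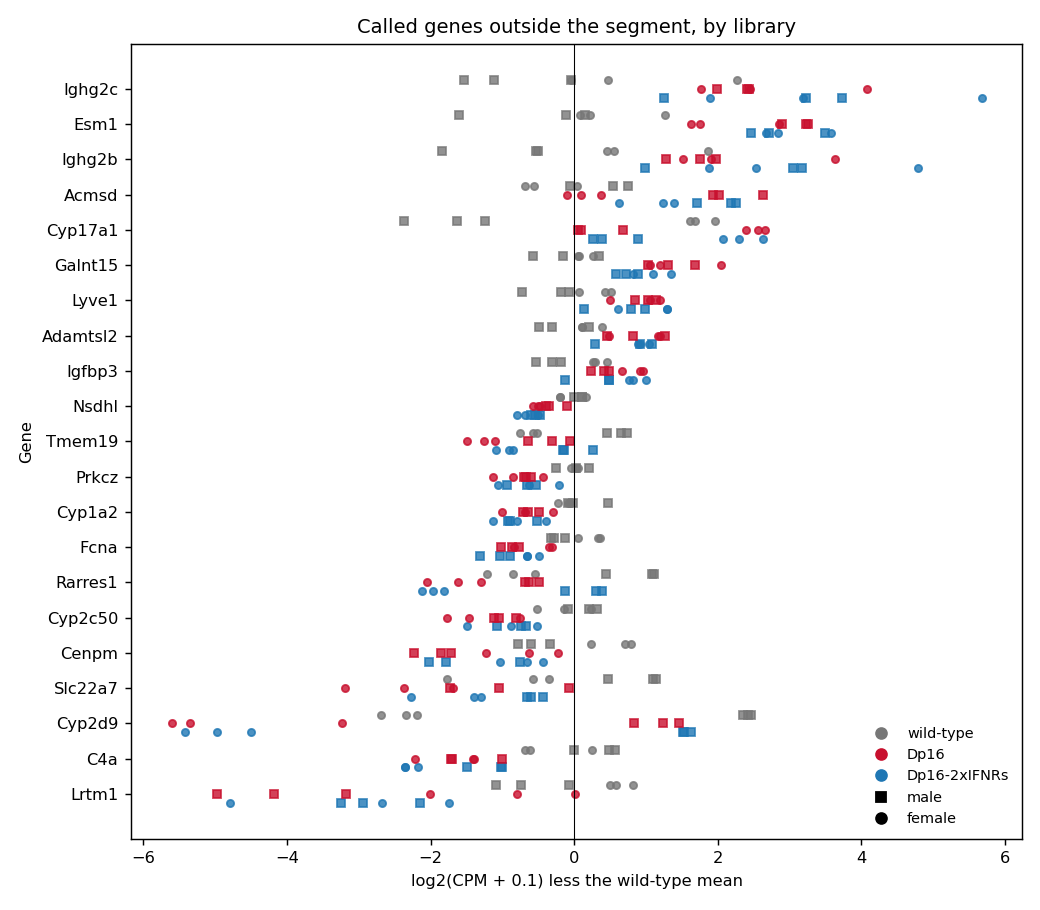
Log2(CPM + 0.1) less the wild-type mean (horizontal axis) in each library for the 21 called genes outside the segment that the naming rule took, 1 point per library (squares males, circles females). For most of these genes carriers of both genotypes lie on 1 side of the wild-type libraries of their own sex, with overlap in genes such as Acmsd, Slc22a7 and Cenpm where single carriers reach the wild-type range.

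Esm1 (ENSMUSG00000042379.8, chromosome 13, positions 113209659 to 113218098), a proteoglycan that activated endothelial cells release, was 7.03-fold higher in carriers (log2 2.81, SE 0.413, adjusted p = 0.00627). Wild-type libraries held 0.144, 0.70 and 1.67 CPM at the lowest, median and highest, and carriers 2.18, 5.21 and 8.74 CPM. No carrier library reached down to the highest wild-type library. The values in the carrier groups were 2.67 in Dp16 and 2.96 in Dp16-2xIFNRs, with an interval of -0.56 to 1.13 for their difference. Wild-type males held 0.144 to 0.72 CPM and carrier males 3.99 to 8.21, and in females the values were 0.681 to 1.67 and 2.18 to 8.74. Lyve1, a hyaluronan receptor of sinusoidal and lymphatic endothelium, measured 3.47, 5.81 and 8.32 CPM in wild-type and 6.42, 11.8 and 14.4 CPM in carriers, with some carriers inside the wild-type range, and rose 1.90-fold (log2 0.92, SE 0.188, adjusted p = 0.0487). It was not called without Dp16 libraries 4 and 5 (adjusted p = 0.0595) or by limma-voom (adjusted p = 0.0658). In bulk tissue, a change in the number of cells of a type and a change in RNA per cell cannot be told apart. Of 35 endothelial markers tested, 19 were above 0 and 16 below in pooled carriers, with a median of 0.02. The median was 0.17 in Dp16, with 25 above 0, and -0.12 in Dp16-2xIFNRs, with 13 above 0, and 6 members differed between the carrier groups at an unadjusted p under 0.05. Their summed level was 517 to 743 CPM in wild-type, 592 to 930 in Dp16 and 585 to 736 in Dp16-2xIFNRs. Wnt2, the Wnt ligand of endothelial cells near the central vein, stood at -1.09 (SE 0.253) and did not pass. It was named after its values were seen.

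Adamtsl2, a secreted protein that binds fibrillin, measured 3.47, 5.31 and 6.43 CPM in wild-type and 6.04, 9.33 and 11.9 CPM in carriers, and rose 1.86-fold (log2 0.90, SE 0.176, adjusted p = 0.0376). Igfbp3, the main carrier of insulin-like growth factors in blood, differed by sex and was higher in carriers of each: males measured 13.0 to 16.6 CPM in wild-type and 17.2 to 26.2 in carriers, and females 22.7 to 25.9 and 29.9 to 37.7. Its change was 1.51-fold (log2 0.60, SE 0.117, adjusted p = 0.0358), with 0.61 in Dp16 and 0.58 in Dp16-2xIFNRs. Galnt15, which starts O-linked sugar chains on proteins, measured 1.11 to 2.18 CPM (median 1.78) in wild-type and 2.59 to 7.35 CPM (median 3.71) in carriers, with no overlap. It rose 2.29-fold (log2 1.197, SE 0.205, adjusted p = 0.0207). Its rise was larger in Dp16 (1.46) than in Dp16-2xIFNRs (0.93), a difference of -0.53 with an interval of -0.99 to -0.06 and an unadjusted p of 0.0293.

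Acmsd decides how much tryptophan is burned for energy and how much goes to make NAD. It measured 11.5, 18.4 and 31.2 CPM in wild-type and 17.3, 55.0 and 115 CPM in carriers, and 11 of 12 carriers were above the wild-type mean, while the lowest carriers overlapped wild-type. It rose 2.58-fold (log2 1.37, SE 0.23, adjusted p = 0.0189). The other 18 tested genes of tryptophan breakdown and NAD synthesis were not called, with Kmo at -0.27 (SE 0.098) as the next by p, named after its values were seen. Cyp17a1, a steroid hydroxylase that is female-biased in mouse liver, rose 2.53-fold (log2 1.34, SE 0.249, adjusted p = 0.0297). Males measured 7.48 to 16.6 CPM in wild-type and 40.7 to 72.7 in carriers, and females 120 to 152 and 165 to 247, so the groups were separated within each sex. The change was larger in males, by 1.42 log2 units with an unadjusted interaction p of 0.000534, which did not pass adjustment over all genes.

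Ighg2b and Ighg2c, neighbouring genes for constant regions of immunoglobulin G, rose 5.85-fold (log2 2.55, SE 0.509, adjusted p = 0.0435) and 8.11-fold (log2 3.02, SE 0.61, adjusted p = 0.0445). Ighg2c measured 0.308, 1.05 and 5.58 CPM in wild-type and 2.71, 6.35 and 60.6 CPM in carriers, so the groups overlapped. Limma-voom called neither (adjusted p = 0.318 and 0.39), and the calls were kept in 7 and 6 of 18 omissions of a single library, and their highest adjusted p values were 0.147 and 0.157. The 23 tested markers of B and plasma cells include Ighg2b and Ighg2c themselves. Of the 23, 20 were above 0, with a median of 1.19 (0.53 in Dp16 and 1.51 in Dp16-2xIFNRs) and 12 at an unadjusted p under 0.05, all higher. Their summed level was 476 to 615 CPM in wild-type, 408 to 870 in Dp16 and 631 to 1333 in Dp16-2xIFNRs. In wild-type neither Ighg2b nor Ighg2c passed 6.335 CPM, so other members made up most of that sum. The part of these markers in the immunoglobulin values was not tested.

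Among the genes that fell, C4a had the lowest p of all but 1 gene. C4a (ENSMUSG00000015451.16, chromosome 17, positions 34809092 to 34823464) is the sex-limited relative of complement C4b. The authors' count table lists C4a as a long noncoding RNA and not as protein coding. It measured 8.16, 14.4 and 19.5 CPM in wild-type and 2.48, 4.29 and 6.52 CPM in carriers, with no overlap, and fell to 0.314 of wild-type (log2 -1.67, SE 0.198, adjusted p = 0.000558). The value was -1.57 in Dp16 and -1.77 in Dp16-2xIFNRs. C4b itself stood at -0.31 (SE 0.237) with ranges of 436 to 988 and 290 to 1096 CPM, and was named after its values were seen. How reads shared between close paralogs such as C4a and C4b, the Cyp2c and Cyp2d families or the immunoglobulin genes were counted is not stated in the labels, so the single values of these genes are uncertain.

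Fcna (ENSMUSG00000026938.10, chromosome 2, positions 25624666 to 25628030), a ficolin of Kupffer cells that activates complement, measured 30.1, 37.0 and 48.2 CPM in wild-type and 15.2, 21.5 and 30.4 CPM in carriers. Within males the ranges were 30.1 to 34.7 and 15.2 to 22.0, and within females 39.2 to 48.2 and 21.1 to 30.4, with no overlap in either sex. Fcna fell to 0.587 of wild-type (log2 -0.77, SE 0.106, adjusted p = 0.0035), by 0.69 in Dp16 and 0.84 in Dp16-2xIFNRs on the log2 scale. Of 22 Kupffer cell markers tested, 16 were below 0, with a median of -0.11 and a summed level of 920 to 1400 CPM in wild-type, 912 to 1365 in Dp16 and 1048 to 1192 in Dp16-2xIFNRs. Folr2 (-0.77, SE 0.165, adjusted p = 0.0636), a folate receptor of resident macrophages that was named after its values were seen, came next. Folr2 was called with the length offset (adjusted p = 0.00792, edgeR) and with DESeq2, but not with limma-voom. Ccl24, a chemokine for eosinophils made by macrophages, also named after its values were seen, measured 2.58, 3.20 and 3.92 CPM in wild-type and 0.404, 0.796 and 1.82 CPM in carriers, with no overlap, and fell to 0.28 of wild-type (log2 -1.83, SE 0.295, adjusted p = 0.0143).

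The calls of 3 cytochrome P450 genes were among those that fell. Cyp1a2, an enzyme of caffeine and drug oxidation found around the central vein, measured 632, 704 and 1020 CPM in wild-type and 337, 454 and 599 CPM in carriers, with no overlap, and fell to 0.614 (log2 -0.70, SE 0.137, adjusted p = 0.0358). Cyp2c50, which oxidizes fatty acids such as arachidonate, measured 481, 726 and 864 CPM in wild-type and 203, 356 and 483 CPM in carriers, where only the highest carrier reached the lowest wild-type library. It fell to 0.494 (log2 -1.02, SE 0.162, adjusted p = 0.0143). Cyp2d9, a male-biased steroid hydroxylase, measured 1312 to 1420 CPM in wild-type males and 458 to 798 in carrier males, and 39.8 to 56.2 and 5.18 to 27.3 CPM in females, so that it was separated in both sexes. It fell to 0.319 (log2 -1.65, SE 0.299, adjusted p = 0.0279), by less in males (interaction 1.195, unadjusted p = 0.0481). Of 34 tested genes of P450 families 1 to 3, 22 were below 0 with a median of -0.33, 11 were lower at an unadjusted p under 0.05 and 0 were higher.

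Slc22a7, an organic anion transporter, fell to 0.381 (log2 -1.39, SE 0.254, adjusted p = 0.0279), with 55.4 to 88.3 CPM in wild-type males beside 12.0 to 38.2 in carrier males, and 11.7 to 31.5 beside 4.30 to 16.2 in females, where the ranges overlapped. Rarres1, a retinoid-responsive membrane protein, fell to 0.50 (log2 -0.999, SE 0.174, adjusted p = 0.0241), with males at 75.4 to 120 and 34.7 to 72.6 CPM and females at 24.0 to 38.1 and 12.8 to 22.5 CPM. Tmem19, a membrane protein, fell to 0.64 (log2 -0.64, SE 0.116, adjusted p = 0.0279) and was separated in both sexes, with -0.81 in Dp16 and -0.48 in Dp16-2xIFNRs (difference 0.32, unadjusted p = 0.0283). These 3 genes had higher levels in males than in females of wild-type. Prkcz, an atypical protein kinase C, measured 18.9, 23.1 and 26.2 CPM in wild-type and 10.3, 14.3 and 19.6 CPM in carriers and fell to 0.618 (log2 -0.69, SE 0.135, adjusted p = 0.0358), with only the highest carrier inside the wild-type range. Its call was lost with the length offset (adjusted p = 0.0865). Cenpm, a centromere protein, measured 2.16 to 6.58 CPM and 0.729 to 3.21 CPM and fell to 0.429 (log2 -1.22, SE 0.222, adjusted p = 0.0279). Lrtm1, a leucine-rich repeat membrane protein, measured 5.43, 13.7 and 20.5 CPM in wild-type and 0.273, 1.57 and 11.7 CPM in carriers, and fell to 0.192 (log2 -2.38, SE 0.464, adjusted p = 0.0358), in 11 of 12 carriers.

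The remaining called genes outside the segment were named after their values were seen. The gene a, which encodes the agouti protein of coat color, had 0 counts in wild-type and 13 to 166 per library in carriers, at least 204-fold higher when wild-type is set to a floor of 3 counts for the whole group (adjusted p = 0.000423). C57BL/6J mice carry the nonagouti allele of this gene, and a difference in genetic background between carriers and wild-type cannot be told apart from the segment here. Sema3g, a secreted semaphorin of vessels, had 0 counts in wild-type and 109 and 144 counts in the carrier groups, at least 45.5-fold higher (adjusted p = 0.0445), in 11 of 12 carriers. The gene 1810064F22Rik stood at 2.35 (adjusted p = 0.0279) and Gm36419 at -1.41 (adjusted p = 0.0334). Some of the 26 called genes outside the segment lie close to each other: within 2 Mb these were Ighg2b with Ighg2c, Cyp2d9 with Cenpm (200 kb apart), Galnt15 with Sema3g (811 kb) and Fcna with Adamtsl2 (1455 kb), and the members of the last pair changed in opposite directions.

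By count, cholesterol synthesis was the list outside the segment with the most members past an unadjusted p of 0.05 on one side. By share, B and plasma cell markers stood level with it (52.17% higher). Of 25 cholesterol synthesis members tested, 24 were below 0, the median log2 fold change was -0.32 in pooled carriers, -0.32 in Dp16 and -0.33 in Dp16-2xIFNRs, and 13 were lower at an unadjusted p under 0.05 (52.0%, beside 3.16% of all genes), with 0 higher. The list was chosen with its direction in Dp16 known, so these counts are not independent evidence of it. Nsdhl, which removes a methyl group from the sterol ring (ENSMUSG00000031349.4, chromosome X, positions 72918557 to 72958514), was called. It measured 88.8, 105 and 114 CPM in wild-type and 58.3, 71.6 and 94.7 CPM in carriers, where only the highest carrier reached the wild-type range. Nsdhl fell to 0.704 (log2 -0.51, SE 0.0965, adjusted p = 0.0334), with -0.41 in Dp16 and -0.61 in Dp16-2xIFNRs. The call was kept in 5 of 18 omissions of a single library, with an adjusted p of up to 0.115 without wild-type 3.

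Other members are given by their order along the pathway, as values only and chosen after their values were seen. At its start, Hmgcs1 stood at -0.55 (SE 0.221), with wild-type libraries from 157 to 610.3 CPM and carriers from 154 to 358. In the mevalonate steps, Mvk stood at -0.47 (SE 0.137) and Mvd at -0.81 (SE 0.231). In the sterol steps, Cyp51 measured 186, 205 and 242 CPM in wild-type and 115, 143 and 185 CPM in carriers without overlap, at -0.55 (SE 0.117, adjusted p = 0.0636), and Msmo1 stood at -0.69 (SE 0.167). The late enzymes Sc5d and Ebp stood at -0.06 (SE 0.101) and 0.05 (SE 0.157). The median over the list was below that of wild-type in 12 of 12 carrier libraries (-0.55 to -0.19, beside -0.32 to 0.32 in wild-type), and below all wild-type libraries in 5. Leaving out single libraries gave medians from -0.42 (without wild-type 6) to -0.27 (without wild-type 4).

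Promoters are shown for 3 members of the list, since genes of this pathway are known to share control by the factor SREBP-2, which works with the CCAAT-binding factor NF-Y at their promoters. The sequences are from RefSeq (GRCm38.p6) and run 5' to 3' on the coding strand, from 250 bases before to 50 bases after the start. Capitals mark CCAAT on either strand (read as CCAAT or ATTGG) and, in Hmgcs1, the sterol element TCACNCCAC (N is any base), which was searched on both strands and does not overlap a CCAAT here. Nsdhl is at chrX:72918271-72918570, Hmgcs1 at chr13:119690101-119690400 and Mvk at chr5:114444019-114444318, each on the plus strand. The starts are those of RefSeq: the ends of the Nsdhl and Hmgcs1 windows were not found at the beginning of their GENCODE M21 transcripts, and positions relative to a start hold for the RefSeq start.
Nsdhl: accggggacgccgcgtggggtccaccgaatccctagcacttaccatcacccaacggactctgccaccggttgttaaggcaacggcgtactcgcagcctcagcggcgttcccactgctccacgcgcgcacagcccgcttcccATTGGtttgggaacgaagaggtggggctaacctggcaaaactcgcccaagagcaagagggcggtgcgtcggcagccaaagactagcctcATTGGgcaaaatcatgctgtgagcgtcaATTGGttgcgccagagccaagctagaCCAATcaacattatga
Hmgcs1: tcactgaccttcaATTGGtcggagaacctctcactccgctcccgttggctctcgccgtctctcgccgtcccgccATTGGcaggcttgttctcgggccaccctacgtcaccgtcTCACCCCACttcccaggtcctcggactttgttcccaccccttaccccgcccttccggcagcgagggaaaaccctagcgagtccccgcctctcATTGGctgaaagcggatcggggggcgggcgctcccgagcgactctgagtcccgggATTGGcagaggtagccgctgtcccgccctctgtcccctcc
Mvk: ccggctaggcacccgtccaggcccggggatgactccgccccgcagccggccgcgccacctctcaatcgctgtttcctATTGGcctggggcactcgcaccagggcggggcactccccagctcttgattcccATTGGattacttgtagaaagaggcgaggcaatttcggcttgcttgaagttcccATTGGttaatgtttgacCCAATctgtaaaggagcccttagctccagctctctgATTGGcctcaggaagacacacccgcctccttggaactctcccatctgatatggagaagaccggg
The element TCACNCCAC lay 137 bases before the start of Hmgcs1, and no other of the 17 list members with a promoter in the table held it (5.88%, beside 1.44% of 11053 tested genes). CCAAT was held by 16 of the 17 (94.1%, beside 42.8%), with 4 copies in Nsdhl, 4 in Hmgcs1 and 5 in Mvk. The 3 promoters shown hold the most copies among the 17. Ebp (log2 fold change 0.05) and Sc5d (-0.06) held 2 and 1 copies, Cyp51 (-0.55) held 1 and Acat2 (-0.29) held 0. These matches describe the letters of the windows and no binding was measured.

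Genes of pericentral hepatocytes were also lower. Of 16 tested, 15 were below 0, with a median of -0.45 (-0.30 in Dp16 and -0.56 in Dp16-2xIFNRs), and 6 were lower at an unadjusted p under 0.05, of which Cyp1a2 was called. This list too was known to be lower in Dp16 when it was chosen. Glul, the glutamine synthetase that marks the innermost hepatocytes, measured 911, 1271 and 1460 CPM in wild-type and 599, 804 and 1187 CPM in carriers, at -0.61 (SE 0.149), with 12 of 12 carriers below the wild-type mean. Gulo, of ascorbate synthesis, stood at -0.45 (SE 0.099), Cyp2e1, the ethanol-oxidizing P450, at -0.44 (SE 0.128), and Sp5, a target of Wnt signaling, at -1.31 (SE 0.344), each in 12 of 12 carriers. The Wnt targets Axin2, Rnf43 and Lgr5 stood at -0.63 (SE 0.358), -0.71 (SE 0.244) and -0.52 (SE 0.256), and Oat at 0.02 (SE 0.181). In Dp16 and Dp16-2xIFNRs, Rnf43 stood at -0.67 and -0.75, but Axin2 at -0.17 and -1.09 and Lgr5 at -0.26 and -0.775. None of these passed the adjusted test, and all but Cyp1a2 were named after their values were seen. The summed level of the list was 8983 to 12120 CPM in wild-type, 6197 to 8999 in Dp16 and 7498 to 8566 in Dp16-2xIFNRs, so that the highest Dp16 library just reached the wild-type range. Cyp2e1 alone measured 5108 to 7743 CPM in wild-type and 2999 to 5532 in carriers, so this sum mostly follows Cyp2e1. Periportal genes stood the other way, with 12 of 15 above 0 and a median of 0.14, and 0 called. General hepatocyte markers had a median of 0.02.

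**Figure D5:**
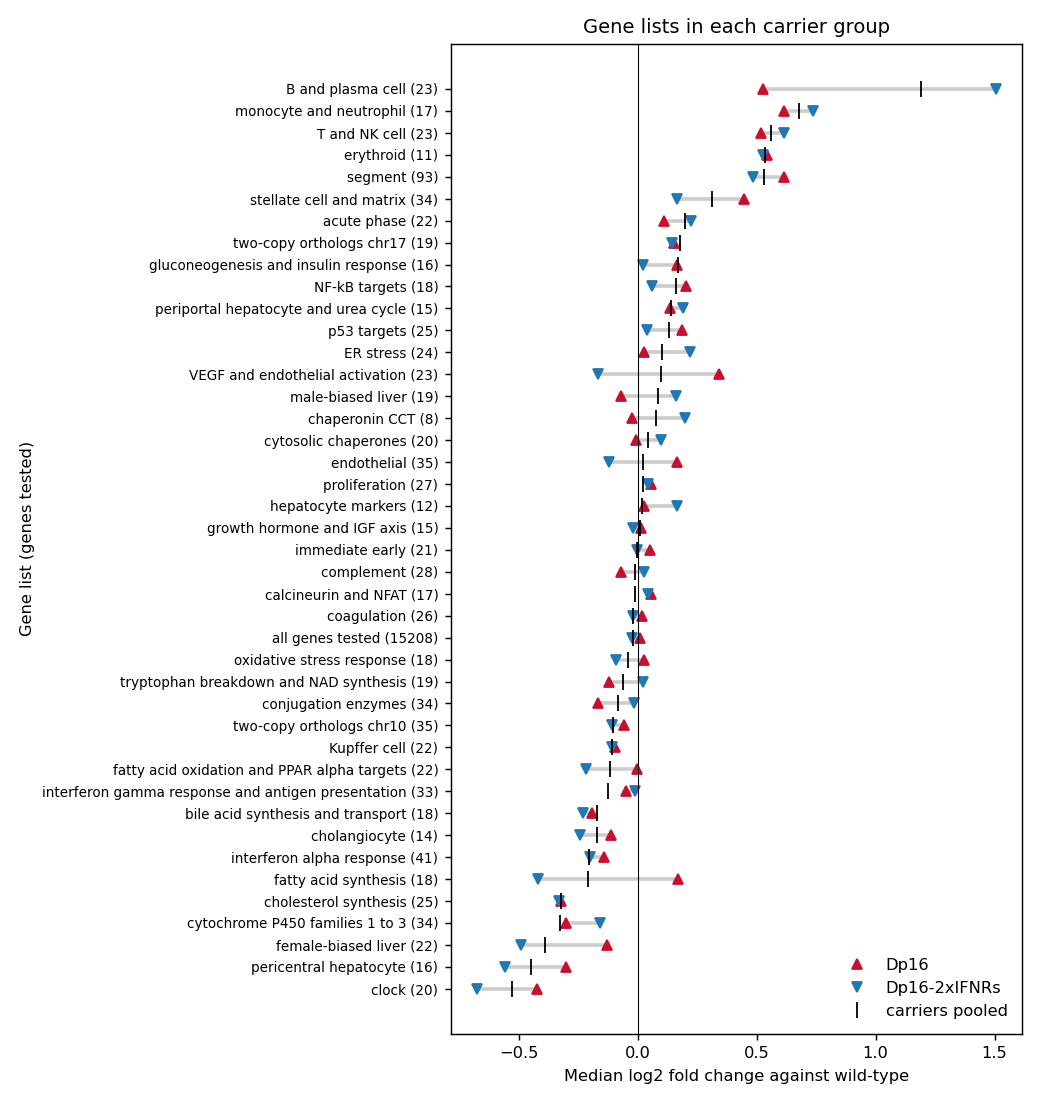
Median log2 fold change against wild-type (horizontal axis) of each gene list in Dp16 (upward triangles), Dp16-2xIFNRs (downward triangles) and pooled carriers (ticks), with the number of genes tested in brackets. In pooled carriers the segment lies at 0.53, cholesterol synthesis at -0.32 and pericentral genes at -0.45, and the B and plasma cell list (0.53 and 1.51) has the widest gap between the carrier groups.

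Bile acid genes had 15 of 18 members below 0, with a median of -0.17, 4 lower at an unadjusted p under 0.05 and 0 called. Slc10a1 and Slco1b2, which take bile acids and organic anions up from blood, stood at -0.39 (SE 0.108) and -0.39 (SE 0.14). Clock genes had 14 of 20 below 0, with a median of -0.53 and 0 called, and Per2, a repressor of the clock, measured 4.21 to 13.3 CPM in wild-type and 0.85 to 6.26 in carriers (-1.28, SE 0.319). The labels do not give the time of day at which livers were taken.

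Interferon alpha response genes were not higher in carriers. Of 41 tested, 32 were below 0, with a median of -0.20 (-0.14 in Dp16 and -0.20 in Dp16-2xIFNRs), 6 were lower and 1 higher at an unadjusted p under 0.05, and 0 were called. The 1 higher gene was Mx2, an antiviral GTPase that itself lies on the segment, at 0.89 (SE 0.303). Ifi27 measured 48.8 to 117 CPM in wild-type and 30.8 to 80.1 CPM in carriers, at -0.88 (SE 0.188, adjusted p = 0.0636), with 12 of 12 carriers below the wild-type mean and -0.88 in each carrier group. Ifi27 was called with the length offset (adjusted p = 0.000317, edgeR), with DESeq2 and without Dp16 libraries 4 and 5, but not with limma-voom.

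Of the other lists, stellate cell and matrix genes differed between the carrier groups about as much as from wild-type. Medians in Dp16 and Dp16-2xIFNRs were closer for monocyte and neutrophil (0.615 and 0.736), erythroid (0.545 and 0.525) and T and NK cell markers (0.517 and 0.617). In wild-type, monocyte and neutrophil markers summed to only 9.76 to 33.9 CPM, and T and NK cell markers to 19.1 to 68.9 CPM. Stellate cell and matrix genes had 31 of 34 above 0, with a median of 0.31 that was 0.45 in Dp16 and 0.16 in Dp16-2xIFNRs, and 11 higher and 1 lower (Col15a1) at an unadjusted p under 0.05. Loxl1 and Col1a2, for collagen cross-linking and collagen I, stood at 0.68 (SE 0.24) and 0.52 (SE 0.193), and 0 members were called. The summed level overlapped between groups, at 819 to 1954 CPM in wild-type, 758 to 2275 in Dp16 and 750 to 1185 in Dp16-2xIFNRs. Fn1 alone, at -0.36 (SE 0.326), measured 369 to 1469 CPM in wild-type and 202 to 1497 in carriers. The sum therefore mostly follows Fn1 and says little about the other members. Monocyte and neutrophil markers had 15 of 17 above 0, with a median of 0.68 that was 0.33 without Dp16 library 4. The neutrophil granule genes S100a8 (1.84, SE 0.428) and S100a9 (1.49, SE 0.364) had levels of at most 8.95 CPM. Erythroid markers had 9 of 11 above 0, with Hba-a1 at 1.91 (SE 0.447) on 1.81 to 6.66 CPM in wild-type and 2.17 to 34.2 CPM in carriers. T and NK cell markers had a median of 0.56 in the pooled fit and -0.22 in females alone. None of the members of these lists was called by the edgeR test of all 18 libraries without an offset. S100a8, S100a9 and Hba-a1 were called with the length offset (adjusted p = 0.0151, 0.0128 and 0.0362) and with DESeq2, and Hba-a1 also without Dp16 libraries 4 and 5. The part of blood cells in the other results was not tested.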

How the data were processed

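The data are gene counts from polyadenylated RNA of 18 mouse livers. Per the labels, RNA was extracted with TRIzol and sequenced from strand-specific, paired-end libraries. Per the submitters' processing notes, HISAT2 2.1.0 and HTSeq 0.6.1 were used with GRCm38, besides bcl2fastq, SAMtools 1.5 and FastQC 0.11.5. How strand was set and shared reads were handled is not stated in the sources used. The authors deposited whole-number counts for 55385 genes, which were the values tested, and an RPKM table, which was used for gene lengths and 2 alternatives. Each of 15224 genes checked gave 1 length from both tables. Coordinates came from GENCODE M21, which held 99.56% of the identifiers.

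Genes were kept with filterByExpr by group, scaled with TMM and fitted with edgeR 4.0.16 (R 4.3.3, robust quasi-likelihood) with group and sex as terms and all 18 libraries in 1 fit. The carrier effect is the mean of the Dp16 and Dp16-2xIFNRs coefficients less wild-type, so each genotype has equal weight. The same fit gave Dp16-2xIFNRs against Dp16, and a fit with an added term gave the carrier by sex interaction. A gene was called at a p under 0.05 after Benjamini-Hochberg adjustment across the 15208 genes tested. The median biological coefficient of variation was 0.351. Log2 CPM used a prior count of 2, and a fold against 0 counts used a floor of 3 counts over the group. Intervals are 95%. The fit was also run on simulated counts with planted carrier changes. These counts held no sex effect and no trend with gene length, and no result here rests on them.

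The groups and the 41 gene lists were chosen with earlier results of these data known. Lists are described by counts and medians without a test. The rule for named genes took the receptors, up to 15 called genes in each direction outside the segment (mean log2 CPM 1 or more, predicted and clone names left out), the 6 largest and 6 smallest segment changes at that level, every called segment gene, from each list up to 4 called genes or else the 2 of smallest p, and the 5 of smallest p for the interaction and for the difference between carrier groups. The lists of P450, stellate, immune and other genes were written from general knowledge.

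Alternatives were DESeq2 1.42.0, limma-voom (limma 3.58.1), DESeq2 size factors, TMM without the segment, 2 other filters, a fit without sex, a fit with age, the sample number in the titles as a block, the shared number of the sample description as a random block, 1 carrier factor, males alone, females alone, limma on log2(RPKM + 0.1) and log2(RPKM + 1), omission of each library, and omission of Dp16 libraries 4 and 5. An offset for gene length was added after the data were seen.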

Additional observations from a re-analysis of the deposited data

Results flagged for a closer look

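Of 103 groups of 6 libraries examined for 1 value far from the rest, 7 held one. Chance flags about 1 group in 20 if values follow a normal distribution, which was not checked for these CPM values. Cyp1a2 stood at 1020 CPM in wild-type 1, beside 632 to 731 in the other wild-type libraries, and was not called without that library (adjusted p = 0.124). Ighg2b and Ighg2c stood at 21.9 and 19.9 CPM in Dp16 6, beside 4.19 to 6.87 and 3.94 to 6.37 in the other Dp16 libraries. Adamtsl2 stood at 6.04 CPM in Dp16-2xIFNRs 5, beside 9.13 to 10.5. Vps26c stood at 34.9 CPM in Dp16 4, beside 18.5 to 23.2. Ifnar2 stood at 64.2 CPM in Dp16 5, beside 83.9 to 97.3. Gm5678 stood at 0.0413 CPM in wild-type 6, with the other wild-type libraries at 0.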

How the results depend on the processing

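The count of 31 called genes was 137 with DESeq2, 6 without the sex term, 29 with limma-voom, 58 with limma-voom and the number shared in the descriptions as a random block, 54 without Dp16 libraries 4 and 5, 69 with the length offset, and 0 in males alone and 0 in females alone, where each fit holds 9 libraries. The 5 called segment genes were 12, 0, 4, 6, 8, 14, 0 and 0 in the same order, 1 with no low count filter and 9 on log2(RPKM + 0.1). The count between carrier groups (0) was 7 with DESeq2, and that of the sex interaction (0) was 16 with DESeq2 and 1 with limma-voom. The segment median (0.49) was 0.32 on log2(RPKM + 1), where the added value shrinks low genes. When 1 library was left out, the count of calls ran from 4 to 47, that of segment calls from 0 to 8, and the segment median from 0.45 to 0.55, while the other 2 counts were 0 throughout. Of the calls, 54.8% were higher, beside 62.8% with DESeq2 and 41.4% with limma-voom. All 31 genes kept their direction in every setting that tested them, which their choice in these same libraries favours. The cause of these shifts was not tested.

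The sample numbers in the titles do not pair the libraries: of 18 same-number pairs, 9 correlated above 0.1 (r from -0.52 to 0.59), and 3 of 18 libraries correlated best with their own number. The 7 pairs that share a number in the descriptions had r from 0.03 to 0.70 (consensus correlation 0.405), and what that number stands for is not given. With the replicate block, 26 genes were called, 20 of them among the 31, and 4 segment genes. With 6 wild-type libraries and a median coefficient of variation of 0.351, precision is limited, and a gene that was not called is not shown to be unchanged.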

Other observations

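Sex and receptor dosage gave further values that passed no adjusted edgeR test. For the carrier by sex interaction, the genes of smallest p outside the segment were Cav1 (log2 -2.47, males less females, edgeR adjusted p = 0.152), a coat protein of membrane caveolae, and Cxcl10 (2.13, edgeR adjusted p = 0.152), a chemokine induced by interferon, with Mkrn3, Lrrc14b and Tmem100 next. Between the carrier groups, Cyp3a16, a P450 gene of young and female liver, stood at -2.97 in Dp16-2xIFNRs against Dp16 (edgeR adjusted p = 0.532), with Tacc2 at -1.28, Pdzrn3 at -1.24, Col5a3 at -1.80 and Thsd4 at -3.01. Among the lists whose medians had opposite signs in the carrier groups, the widest gaps were those of fatty acid synthesis (0.17 in Dp16 and -0.42 in Dp16-2xIFNRs) and VEGF and endothelial activation (0.34 and -0.17).

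Among genes that were not called, 20 did not overlap between carriers and wild-type within males or within females. They include Cyp51, Dgat2, which makes triglycerides, Slc10a1, Gulo, Wnt2 and the caveolar gene Cavin1, and they were named after their values were seen.

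Of the p53 target list, 16 of 25 members were above 0 (median 0.13), with 4 higher and 1 lower at an unadjusted p under 0.05, and Cdkn1a, an inhibitor of the cell cycle, stood at 1.64 (SE 0.449). Igfbp1, a liver protein that insulin represses, stood at 1.37 (SE 0.314), while its list of gluconeogenesis genes had 9 of 16 above 0. Ces1g, a carboxylesterase, stood at -0.76 (SE 0.172). Complement genes, C4a and Fcna included, were near 0 as a list (28 tested, median -0.01), and so were coagulation (26 tested, -0.02), proliferation (27 tested, 0.02) and cytosolic chaperone genes (20 tested, 0.04), with 0 members called in the last 3. Acute phase genes had 17 of 22 above 0 (median 0.20) with 0 past an unadjusted p of 0.05.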
